A study of Mus musculus with 8 samples.

Results

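The 10 genes described here, which carry or steer sodium along the kidney tubule, were read on expression arrays of whole kidney from 8 mice. The members are the sodium transporters and channels Slc9a3, Slc12a1, Slc12a3, Scnn1a, Scnn1b and Scnn1g and the regulators Wnk1, Wnk4, Klhl3 and Stk39. Every array probe whose annotated gene name is a member was taken, which gave 19 of 56605 probes, and 10 of 36870 gene names. Of these probes, 17 passed the background filter (both arrays of 1 group or more well above background) and were tested among 33639 such probes. The other 2, both for Wnk1 (A_51_P292460 and A_55_P2185811), were well above background on 0 of 8 arrays. The study gave diabetic mice nanoparticles loaded with a mimic of miR-181b-5p and profiled the kidney. It used male mice, 20 weeks old, in 4 groups of 2: normal mice (C57BLKS/J Iar -m+/m+), untreated db/db mice (C57BLKS/J Iar -+Leprdb/+Leprdb), db/db mice given control-miRNA-PEI-NPs and db/db mice given miRNA-181b-5p-mimic-PEI-NPs. All 3 db/db groups therefore share the Leprdb mutation of the leptin receptor on both chromosomes, which makes mice obese and diabetic, and the same background strain as the normal mice. The sources used here do not give dose, route or schedule of the nanoparticles.

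Sodium is taken back from the filtrate segment by segment. The exchanger NHE3 (Slc9a3) works in the proximal tubule, the cotransporter NKCC2 (Slc12a1) in the thick ascending limb, the thiazide-sensitive cotransporter NCC (Slc12a3) in the distal convoluted tubule, and the epithelial sodium channel ENaC (subunits from Scnn1a, Scnn1b and Scnn1g) in the aldosterone-sensitive nephron that follows. WNK kinases (Wnk1, Wnk4) activate the kinase SPAK (Stk39), which phosphorylates and switches on NCC and NKCC2, while the adaptor KLHL3 brings WNK kinases to a ubiquitin ligase for breakdown. This switch acts on protein and phosphorylation, which an array of RNA does not read.

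The treatment was designed around a single small RNA. The mature mouse miR-181b-5p of RefSeq is shown with its seed, bases 2 to 8, in capitals, because pairing of the seed decides which messages a miRNA can lower. Whether the mimic has exactly this strand is not stated.
mmu-miR-181b-5p: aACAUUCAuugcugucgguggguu
Each level below is the brightness of a 60-base probe, so a result on a gene is a result on those 60 bases. Of the member probes that have at least 1 reading frame free of stop codons, 6 are shown as examples of what was read, 5′ to 3′ as the scanner files give them.
Slc9a3, A_52_P82701: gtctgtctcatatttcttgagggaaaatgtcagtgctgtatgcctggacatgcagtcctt
Slc12a3, A_51_P445985: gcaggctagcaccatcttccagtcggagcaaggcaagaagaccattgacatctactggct
Scnn1b, A_55_P2934457: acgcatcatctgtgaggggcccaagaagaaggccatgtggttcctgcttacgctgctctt
Wnk1, A_52_P82209: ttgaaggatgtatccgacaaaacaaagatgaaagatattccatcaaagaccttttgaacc
Wnk4, A_51_P486217: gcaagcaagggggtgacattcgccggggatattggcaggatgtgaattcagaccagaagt
Klhl3, A_55_P2001633: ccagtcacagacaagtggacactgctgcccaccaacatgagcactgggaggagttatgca
On the mm9 build used by the array annotation, these lie at chr13:74300566-74301172, chr8:96875636-96875695, chr7:129042869-129042928, chr6:119921070-119922819, chr11:101138198-101138364 and chr13:58110639-58110698. The Slc9a3, Wnk1 and Wnk4 probes in this set are placed over 607, 1750 and 167 bases of genome, longer than the probe itself, as for a probe across joined exons. The 19 probes ranged from 18.3% to 68.3% G and C, against a median of 41.7% over all probes. The extremes were a Wnk1 probe that was never above background (A_51_P292460, 18.3%) and the second Scnn1a probe (A_66_P119584, 68.3%).

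The arrays were alike in depth, with 56.5% to 62.5% of spots well above background and 0 saturated spots. All 8 lay on 1 slide, normal and untreated mice in its row 1 and the nanoparticle mice in its row 2, normal and control miRNA mice in columns 1 and 2 and the other mice in columns 3 and 4. Every comparison of groups therefore also differs in array row or column, which cannot be told apart from it. Levels are log2 values relative to the 75th percentile of the array, so 0 is that percentile. Lepr, the gene with the db mutation, stood at 3.12 and 3.08 in normal kidney and between 1.98 and 2.36 in the 6 db/db kidneys (probe A_55_P2177910). Markers fixed for proximal tubule, thick ascending limb, distal convoluted and connecting tubule, and principal cells lay well above background on all 8 arrays. The adrenal genes Cyp11b1, Cyp11b2 and Cyp11a1 did so on none. Mimic replicate 1 stood apart: the mimic mice correlated at r = 0.976 with each other and lay over 2-fold apart for 10.2% of probes, against 0.815% to 3.00% in the other groups, and replicate 1 alone read high for tubular injury genes. Whether the mice of a group came from separate litters or cages is not stated, so p-values measure the spread between these mice only. That spread is shared over all 4 groups and so includes the gap between the mimic mice, while an exact permutation of 2 mice against 2 cannot give a p below 0.333.

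No member passed the test in any of the 6 comparisons of groups, that is, none had a Benjamini-Hochberg adjusted p under 0.05 over all probes in limma. Of the 17 member probes, 0 were called against normal kidney in each of the 3 db/db groups, while 4.19% of all probes were in untreated, 1.65% in control miRNA and 8.14% in mimic mice. At an unadjusted p under 0.05 the members counted 3, 2 and 2 of 17, against 25.9%, 22.1% and 29.8% of all probes. The members thus stood at or under the background share in each. Their median difference from normal was 0.22 for untreated, 0.15 for control miRNA and 0.05 for mimic mice, beside -0.06, -0.06 and -0.11 over all probes. Untreated and normal mice did not overlap, with untreated higher, for 10 of 17 member probes and 26.9% of all probes. The same count was 8 of 17 after control miRNA, against 24.8%, and 2 of 17 after the mimic, against 20.0%. These 3 comparisons share the normal mice, so they are not independent of each other.

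**Figure D1:**
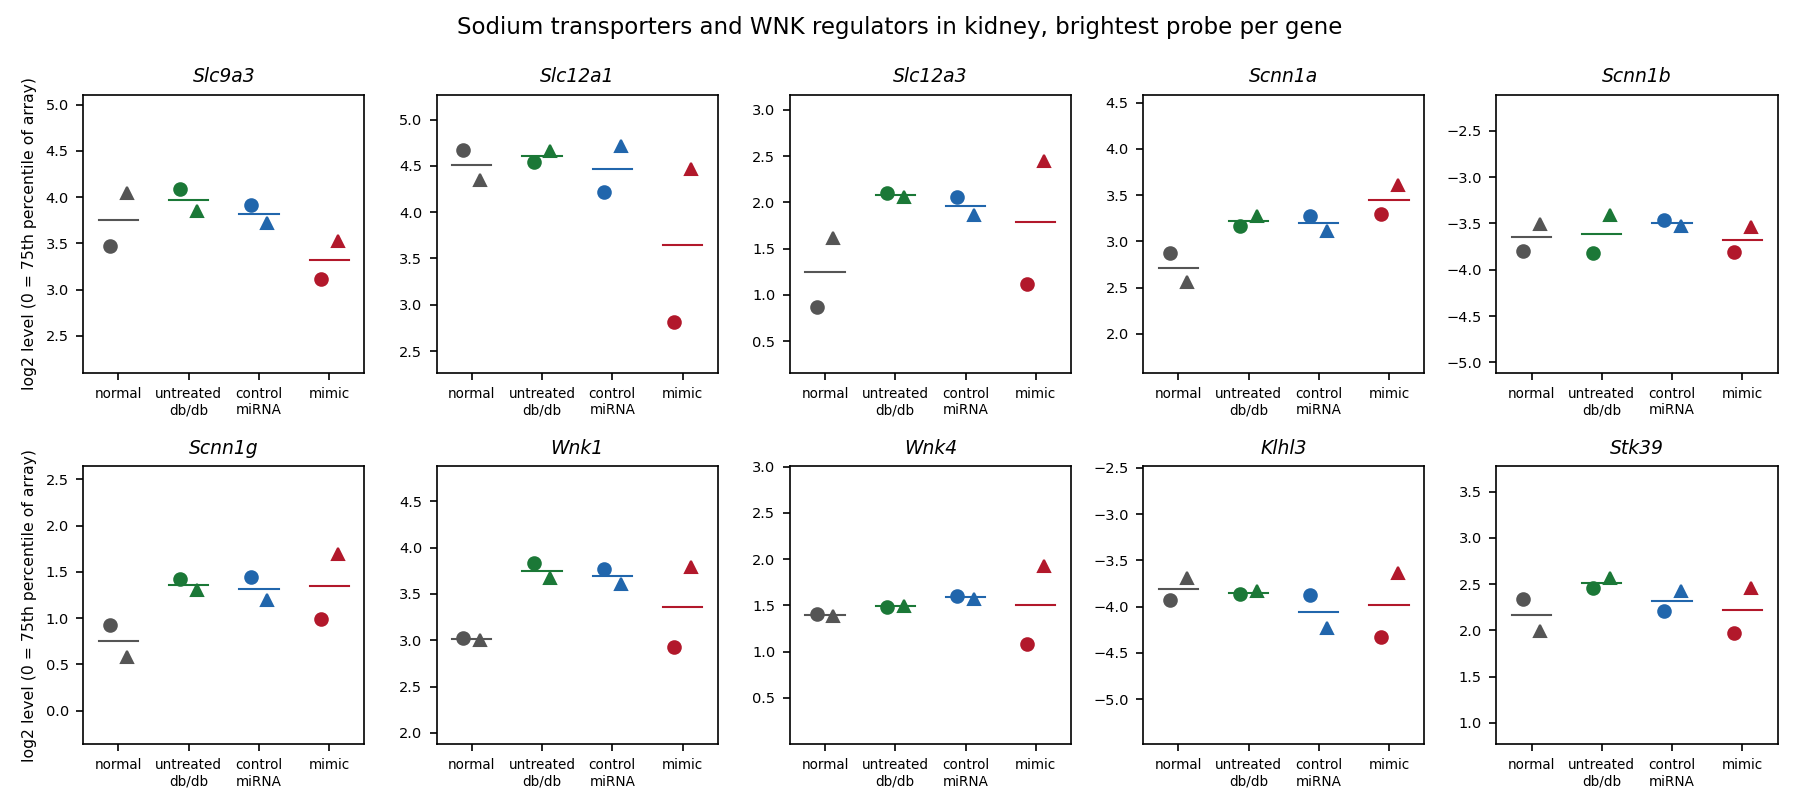
Level of the brightest probe of each of the 10 genes in every mouse, as log2 relative to the 75th percentile of the array (vertical axis, 3 units in every panel), by group (horizontal axis); circles are replicate 1, triangles replicate 2 and lines the mean of the 2 mice. The lower of the mimic points is replicate 1 in all 10 panels, and Scnn1a and Scnn1g of all 6 db/db mice lie above both normal mice.

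In the proximal tubule, no NHE3 probe passed the test, whereas the message of a related exchanger, NHE8, fell in all 3 db/db groups. The brightest Slc9a3 probe (A_55_P2362635, chr13:74306830-74306889) read 3.47 and 4.04 in normal mice, 4.09 and 3.85 in untreated db/db, 3.91 and 3.72 in control miRNA mice and 3.12 and 3.53 in mimic mice. Normal and untreated mice overlapped, while both mimic mice lay below both untreated and both control mice. The mimic against untreated difference of -0.65 (95% interval -1.22 to -0.07) had an unadjusted p of 0.0331 and an adjusted p of 0.311 in limma, and it was the only member probe of 17 under 0.05 in that comparison. The dimmer Slc9a3 probe shown above read -3.16 and -2.60 in normal, -3.04 and -3.27 in untreated, -3.23 and -3.66 in control and -3.98 and -3.43 in mimic kidney. Its mimic mice lay below both normal mice by 0.83 (adjusted p = 0.114), but the 2 Slc9a3 probes disagreed on the sign of the untreated against normal difference (0.22 and -0.28, neither called).

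Slc9a8 encodes NHE8, a related sodium-hydrogen exchanger of the proximal tubule, and was on the list of 13 proximal sodium transport genes. Its brightest probe read 5.61 and 5.87 in normal kidney, 3.42 and 3.40 in untreated db/db, 3.44 and 3.49 in control miRNA mice and 2.79 and 3.14 in mimic mice. All 6 db/db mice lay below both normal mice, and the drop was far larger than the gap within any group. The gene fell in all 3 db/db groups, with log2 differences of -2.33 in untreated db/db (5.04-fold, adjusted p = 0.0044), -2.28 with control nanoparticles (4.85-fold, 0.0057) and -2.78 with the mimic (6.85-fold, 0.0021), in limma over all probes, and 4 of 4 Slc9a8 probes went the same way in each. The call in untreated mice was lost when either of those mice was left out (0.0554 and 0.0584), and that after control miRNA without either control mouse (0.0620 and 0.0642) or without normal replicate 2 (0.0519). The mimic call of Slc9a8 was lost under 1 of 18 alternative settings (highest adjusted p = 0.0545 in limma). The other 12 genes on that list hold the glucose and phosphate cotransporters and the scaffolds of NHE3. None of them was called in any of the 3 comparisons, where 3.93%, 1.72% and 8.51% of all genes passed by their brightest probe. The next smallest p in untreated mice belonged to Slc9a3r2, the NHE3 scaffold NHERF2, at 0.38 (adjusted p = 0.111), with 0.44 (0.104) after control miRNA and 0.51 (0.0516) after the mimic. The summed level of the 8 proximal tubule markers was 1140 to 1373 times the 75th percentile in normal kidney, 1192 to 1209 in untreated, 1113 to 1283 in control and 641 to 1321 in mimic kidney. This sum overlapped normal in each db/db group, but its markers did not move alike. Lrp2, Cubn and Slc22a6 were lower in all 6 db/db mice than in both normal mice, and Slc5a12 was higher in all 6. Slc34a1, Slc5a2, Aqp1 and Miox overlapped normal. In whole kidney, fewer cells of a type and less RNA per cell cannot be told apart, here and for every gene below. Summed markers of other cell types also differed between normal and db/db kidney. Podocyte markers summed to at most 11.8 in normal and to 17.9 to 25.9 in db/db kidney. Red cell markers summed to 4.83 to 9.81 in normal and 53.7 to 171 in 5 of 6 db/db mice. Macrophage markers summed to 14.8 to 16.3 in normal and 6.39 to 9.66 in db/db kidney. Most of this macrophage sum came from Csf1r, which, like Ms4a7, was lower in all 6 db/db mice. Adgre1 and Cd68 of mimic replicate 1 (-0.64 and -0.44) lay above both normal mice. Cd68 of control replicate 2 (-1.17) lay between the normal mice. The sum of the fat cell markers was high in normal replicate 1 alone (67.5, against 8.71 to 12.1 in the other 7). Cfd also read 1.10 in normal replicate 2 and 0.64 in control replicate 1, against -1.71 or lower in the other 5 db/db mice. Adipoq read -3.26 and -1.45 in those 2 mice, against -4.80 or lower in the other 5, a split that Plin1 and Fabp4 did not show. Urothelium markers summed to 12.3 and 3.38 in normal kidney. In control replicate 1 their sum was 6.00, against 0.941 to 2.84 in the other 5 db/db mice. The part of these cell types in the results was not tested.

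In the thick ascending limb, NKCC2 message lay in 1 narrow range in 7 mice and far lower in mimic replicate 1. The brightest Slc12a1 probe (A_52_P26118, chr2:125055224-125055283) read 4.68 and 4.35 in normal mice, 4.54 and 4.67 in untreated db/db and 4.22 and 4.72 after control miRNA. After the mimic it read 2.82 in replicate 1 and 4.46 in replicate 2. The other 7 mice overlapped across groups. Untreated db/db differed from normal by 0.09 (95% interval -1.12 to 1.30), and mimic from untreated by -0.96 (-2.18 to 0.25, adjusted p = 0.427 in limma). With mimic replicate 1 alone as the mimic group, assumed to vary as the other groups do, the fall was 1.79 (adjusted p = 0.00982). With replicate 2 alone the difference was -0.14 (0.935), and these 2 values bound the 18 alternative settings. A second Slc12a1 probe (A_51_P442227, chr2:125021044-125021103) was close to background. It lay well above background on 2 normal, 1 untreated, 1 control and 0 mimic arrays and so passed the filter only through the normal group, which favours a higher normal value. Its level in normal kidney (-4.77 and -4.65) was at least 1.23-fold that in mimic kidney (measured means -4.71 and -6.08, adjusted p = 0.301), a bound that supports nothing for that reason. The 6 markers of this segment summed to 354 to 360 in normal kidney and 223 to 277 in the 6 db/db kidneys. Most of this came from Umod, the uromodulin gene, which was lower in all 6. These 6 markers did not move alike. Egf and Cldn10 were also lower in all 6 db/db mice, Cldn16 was higher in all 6, and Cldn19 and Ptger3 overlapped normal. The brightest Slc12a1 probe overlapped normal in the untreated and control groups.

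In the distal convoluted tubule, NCC message read higher in diabetic than in normal kidney in most mice but not beyond the spread. The single Slc12a3 probe read 0.87 and 1.62 in normal mice, 2.11 and 2.05 in untreated db/db, 2.06 and 1.86 in control miRNA mice, and 1.12 and 2.45 in mimic mice. Untreated and control mice lay above both normal mice, while mimic replicate 1 fell between the normal mice and replicate 2 above every other animal. The difference from normal was 0.83 in untreated db/db (1.78-fold, 95% interval -0.24 to 1.90, adjusted p = 0.287 in limma), 0.71 after control miRNA (0.394) and 0.54 after the mimic (0.443). By group mean the order was untreated, control, mimic, normal, and no neighbours in it differed beyond their spread. Leaving out mimic replicate 2 turned the mimic against normal value to -0.12, and leaving out replicate 1 gave 1.20. The summed level of the 7 markers of the distal convoluted and connecting tubule moved with Slc12a3, though not every marker did. The sum was 46.2 and 57.8 in normal kidney, 149 and 128 in untreated, 137 and 105 in control, and 51.8 and 134 in mimic kidney, with mimic replicate 1 again in the normal range. Most of that sum came from Calb1, the calcium-binding protein calbindin, at 4.59 and 4.90 in normal and 6.31 to 6.88 in 5 of 6 db/db mice (5.12 in mimic replicate 1). Trpm6 and Slc8a1 were also higher than normal in 5 of 6 db/db mice but not in mimic replicate 1. Cnnm2 overlapped normal (2.52 and 2.79, against 2.42 to 2.68 in db/db mice), and Trpv5 was highest in mimic replicate 1 (-0.98). The part of the cells of this segment in the Slc12a3 difference was not tested.

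Of the ENaC subunits, the brightest alpha probe and the gamma probe read higher in all 6 db/db mice than in both normal mice, the beta probe overlapped normal, and none passed the test in a comparison of 2 groups. Such a split, all 6 above both, held for these 2 of 17 member probes and for 12.7% of all probes, so it stood near the background. Scnn1a encodes the alpha subunit, whose transcription aldosterone raises in the collecting duct. Its brightest probe (A_51_P213691, chr6:125294843-125294902) read 2.88 and 2.56 in normal mice, 3.17 and 3.28 in untreated db/db, 3.27 and 3.12 in control miRNA mice and 3.30 and 3.61 in mimic mice. All 6 db/db mice lay above both normal mice, and the mimic mice above the other 4. The difference from normal was 0.50 in untreated (1.42-fold, adjusted p = 0.135), 0.48 in control (0.180) and 0.73 in mimic kidney (1.66-fold, 0.0526, 95% interval 0.32 to 1.15). The mimic value passed under 4 of 18 alternatives, with adjusted p from 0.0180 to 0.223, and no alternative changed its sign. Without mimic replicate 1 it was 0.89 (0.0449). The second Scnn1a probe (A_66_P119584, chr6:125293939-125293998) lies 904 bases nearer the start of the same transcript and read lower in all 3 db/db means. It read 1.43 and 1.28 in normal, 1.22 and 1.29 in untreated, 1.44 and 0.96 in control and 0.95 and 1.35 in mimic kidney, differences of -0.10, -0.16 and -0.21 that overlapped normal and were not called. The 2 probes therefore disagree on direction, and a statement on the Scnn1a message as a whole cannot be drawn from them.

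Scnn1b, the beta subunit, was dim and even: -3.79 and -3.50 in normal, -3.82 and -3.41 in untreated, -3.46 and -3.53 in control and -3.81 and -3.54 in mimic mice. All groups overlapped normal, and the untreated difference was 0.04 (95% interval -0.43 to 0.50). Scnn1g, the gamma subunit, read 0.92 and 0.58 in normal mice, 1.42 and 1.30 in untreated db/db, 1.44 and 1.19 in control miRNA mice and 0.99 and 1.70 in mimic mice (A_51_P245558, chr7:128911434-128911493). All 6 db/db mice lay above both normal mice, mimic replicate 1 only just. The differences were 0.61 in untreated (1.52-fold, adjusted p = 0.200 in limma), 0.56 in control (0.261) and 0.59 in mimic kidney (0.183). Without mimic replicate 1 the mimic difference was 0.95, with an adjusted p of 0.0490 (0.0490 to 0.458 over 18 alternatives), and without replicate 2 it was 0.24. The 6 principal cell markers summed to 57.1 to 77.8 in normal, 52.0 to 65.2 in untreated, 51.9 to 54.2 in control and 28.8 to 58.5 in mimic kidney. The markers did not move alike. Hsd11b2 was higher in all 6 db/db mice than in both normal mice, Fxyd4 and Aqp4 were lower in all 6, and Aqp2, Aqp3 and Avpr2 overlapped normal. The part of these cells in the Scnn1a and Scnn1g values was not tested.

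Among the regulators, Wnk1 had the largest difference. In kidney this gene also makes a short product without the kinase domain, chiefly in the distal convoluted tubule, and which product each probe reads was not worked out here. The brightest Wnk1 probe (A_55_P1972688, chr6:119874366-119874425) read 3.02 and 3.00 in normal, 3.84 and 3.67 in untreated, 3.77 and 3.61 in control and 2.92 and 3.79 in mimic kidney. The other 5 db/db mice lay above both normal mice, and mimic replicate 1 lay below them. The difference was 0.74 in untreated (1.67-fold, adjusted p = 0.155, 0.0193 to 0.458 over 18 alternatives) and 0.68 in control kidney (0.214, 0.0288 to 0.535). It passed in both (0.0193 and 0.0288) when either mimic mouse was left out, and the cause was not tested. Under those settings 15.0% and 10.6% of all probes passed.

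The other 2 measured Wnk1 probes leaned the same way by less. The probe across joined exons shown above read 1.22 and 1.14 in normal against 1.55 and 1.39 in untreated mice, a difference of 0.29 (adjusted p = 0.524). A_55_P2643836 (chr6:119887693-119887752) read -1.36 and -1.43 in normal against -0.99 and -1.17 in untreated mice (0.31, 0.565). Untreated lay above normal in all 3 probes, and mimic replicate 1 lay below both normal mice in all 3.

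Wnk4 was tight within the groups other than mimic, and no probe of it passed. Its brightest probe read 1.40 and 1.39 in normal, 1.49 and 1.49 in untreated, 1.60 and 1.57 in control, but 1.08 and 1.93 in mimic kidney. The untreated difference was 0.09 (95% interval -0.54 to 0.72). The interval rests on the spread shared by all groups: the 3 other groups had an SD of 0.002 to 0.018 over 2 mice and the mimic group 0.601. The second Wnk4 probe (A_55_P2728347, chr11:101137794-101137853) read 0.55 and 0.62 in normal, 0.84 and 0.77 in untreated, 0.82 and 0.76 in control and 0.23 and 1.13 in mimic mice, with an untreated difference of 0.22 (adjusted p = 0.648 in limma). Klhl3 was dim, at -3.92 and -3.69 in normal, -3.86 and -3.83 in untreated, -3.87 and -4.23 in control and -4.33 and -3.64 in mimic mice, and the groups overlapped normal (untreated difference -0.04, interval -0.65 to 0.57). Stk39, which encodes SPAK, by its brightest probe (A_51_P183940, chr2:68049835-68049894) read 2.34 and 1.99 in normal, 2.46 and 2.57 in untreated, 2.21 and 2.42 in control and 1.98 and 2.46 in mimic mice. Untreated lay above normal by 0.35 (adjusted p = 0.343). The second Stk39 probe (A_55_P1953851, chr2:68048524-68048583) read 1.07 and 1.03 in normal and 1.53 and 1.62 in untreated mice, a difference of 0.52 with an unadjusted p of 0.0469 and an adjusted p of 0.187.

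**Figure D2:**
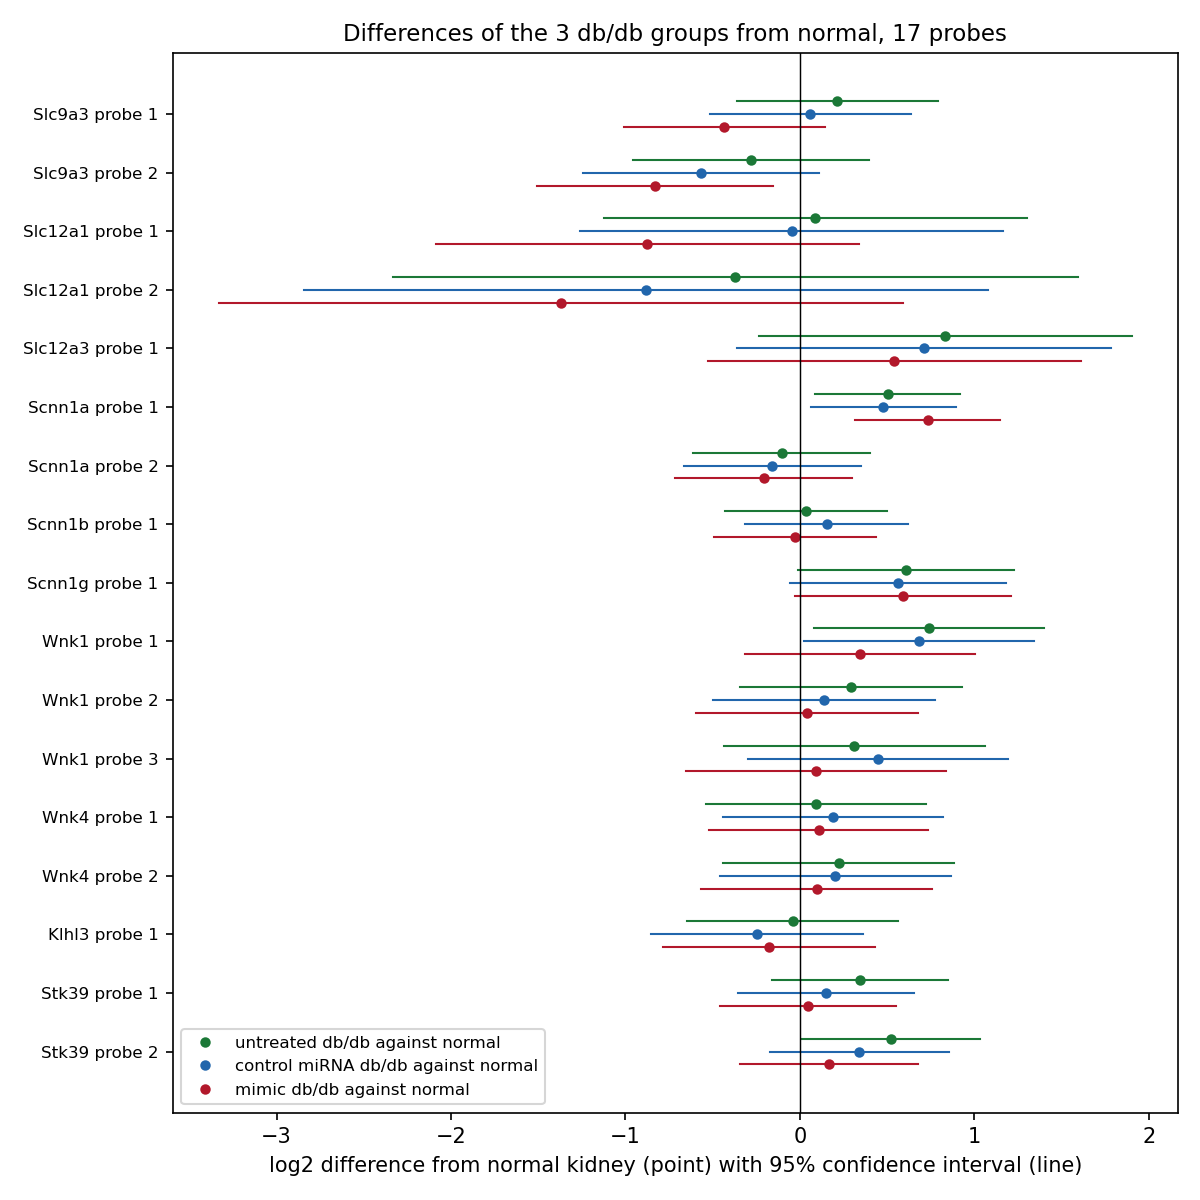
Difference of each db/db group from normal kidney on the log2 scale (horizontal axis; points are the limma estimate, lines its 95% confidence interval) for the 17 tested probes, numbered from the brightest probe of each gene downward. The points of Scnn1a probe 1, Scnn1g, Slc12a3 and every Wnk1, Wnk4 and Stk39 probe lie to the right of 0 in all 3 comparisons. Those of Klhl3 and of probe 2 of Scnn1a, Slc9a3 and Slc12a1 lie to the left in all 3. The remaining probes lie on both sides, and no probe passed after adjustment.

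The mimic group was split for the whole set. In mimic replicate 1 every one of the 17 probes read lower than in replicate 2, while 55.1% of all probes did. The median size of the gap, sign ignored, was 0.71 for the members and 0.29 over all probes. Replicate 1 was the lower for 7 of 17 probes in normal, 8 in untreated and 4 in control mice, against 54.0%, 51.1% and 52.0% of all probes, so the control mice leaned the opposite way, with a member median of 0.16. Slc12a1 was 3.13-fold higher in replicate 2 than in replicate 1, Slc12a3 2.51-fold, Wnk1 1.82-fold, Wnk4 1.80-fold, Scnn1g 1.64-fold and Scnn1a 1.24-fold by their brightest probes. The smallest gap was that of Scnn1b, 1.21-fold. Markers of red cells (171 in replicate 1 and 3.46 in replicate 2) and of injured tubule moved with this split. Havcr1, the injury marker KIM-1, was -0.57 in mimic replicate 1 and -4.11 or lower in the other 7 mice, and Lcn2, the secreted injury marker lipocalin 2, was 4.91 against -0.50 or lower. The 4 injury genes summed to 34.5 in replicate 1 and to 0.586 to 1.33 in the other 7. The sums of the proximal tubule markers (641), the principal cell markers (28.8) and the distal markers (51.8) were at or near their lowest in the same mouse. The sum of the intercalated cell markers (16.4 in replicate 1, 19.4 in replicate 2) was not far from the others. The part of red cells, tubular injury or cell make-up in the sodium transport values of that mouse was not tested.

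**Figure D3:**
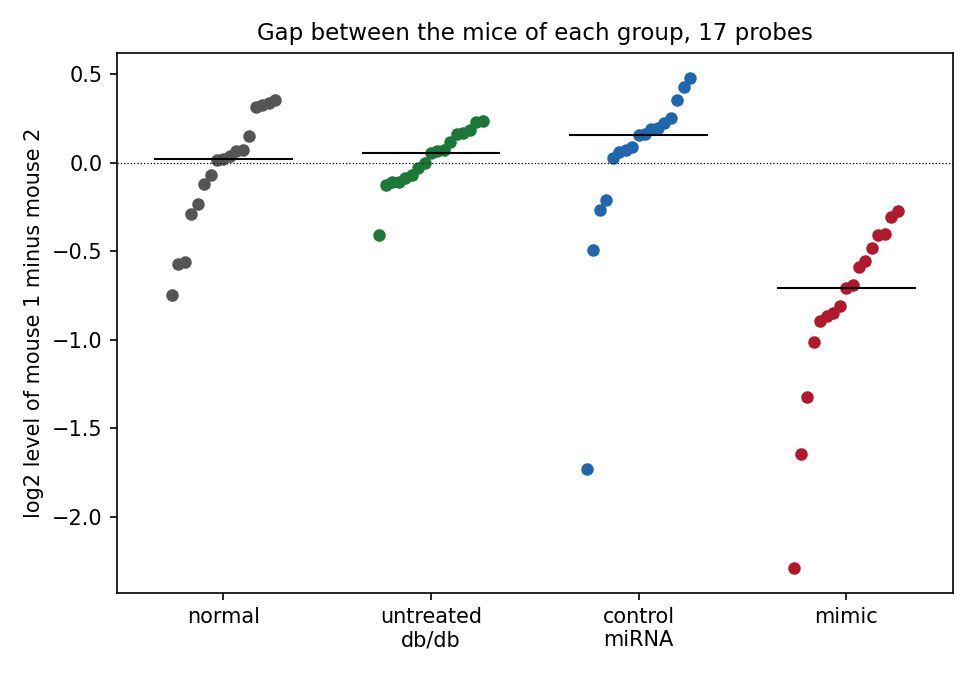
Log2 level of replicate 1 minus replicate 2 (vertical axis) in each group (horizontal axis) for the 17 tested probes, sorted within a group; black bars are medians. All 17 mimic points lie below 0, with a median of -0.71, and the lowest point is the dimmer Slc12a1 probe, which was above background on neither mimic array.

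Between db/db groups no member probe passed the test. In control miRNA against untreated db/db, 0 of 17 probes were called and 0 of 17 had an unadjusted p under 0.05, against 0% and 3.70% of all probes. The median member difference was -0.12, and control mice lay below both untreated mice for 3 of 17 probes, against 20.4%. In mimic against untreated db/db, 0 of 17 were called and 1 of 17 was under 0.05 unadjusted, against 0% and 14.2%, with a median of -0.25 beside -0.04 over all probes. Mimic mice lay below both untreated mice for 5 of 17, against 27.0%: both Slc9a3 probes, both Stk39 probes and the brighter Slc12a1 probe. In mimic against control miRNA, where both groups received nanoparticles, 0 of 17 were called and 0 of 17 were under 0.05, against 0% and 9.60%, with a median of -0.17.

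The mimic results depended on which mouse stood for the group. With replicate 1 alone, 6 member probes passed against untreated db/db, all lower: Slc12a1, 3 Wnk1 probes, 1 Stk39 probe and 1 Wnk4 probe, where 16.8% of all probes passed. Against control miRNA 4 passed, again all lower, for Slc12a1, Wnk1 and Wnk4, where 12.1% of all probes passed. With replicate 2 alone, 0 passed in either, and the brightest probes of Slc12a3, Scnn1g and Wnk1 then read 0.37, 0.34 and 0.04 above untreated kidney. Against normal kidney each mouse alone gave 3 calls, but not the same ones. Replicate 1 gave falls of Slc12a1 (both probes) and the dimmer Slc9a3 probe, where 25.5% of all probes passed, and the dimmer Slc12a1 probe of these was in the test only through its normal level. Replicate 2 gave rises of Scnn1a, Scnn1g and Wnk1, where 7.47% passed. The lone mouse is assumed to vary like the other groups.

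Genes around the members were taken from lists that hold no member. Of 10 tested regulators of the WNK pathway, which include the SPAK relative Oxsr1, the ubiquitin ligase subunit Cul3 and the phosphatase calcineurin, 0 were called in any comparison, and Wnk3 was under the background filter. The smallest p in untreated against normal were those of Klhl2, a relative of Klhl3, at -0.29 (adjusted p = 0.243 in limma) and Cab39, a partner of SPAK, at 0.21 (0.322). In mimic against normal they were Wnk2 at -0.52 (0.100) and Oxsr1 at 0.49 (0.121), and in control miRNA against normal Klhl2 at -0.31 (0.249) and Cab39l at -0.22 (0.311). Their median difference in untreated kidney was 0.06, beside -0.04 over all genes.

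Against normal kidney, of 15 partners of distal salt transport, 0 were called in untreated or control miRNA mice. In mimic mice 1 was higher and 1 lower than normal, where 8.51% of all genes were called, so 2 of 15 stood near the background. Kcnj10, the basolateral potassium channel Kir4.1 of the distal tubule, read 2.54 and 2.39 in normal, 3.14 and 3.12 in untreated, 3.01 and 3.01 in control and 3.00 and 3.34 in mimic kidney. It was higher in all 6 db/db mice, by 0.66 in untreated (adjusted p = 0.0613 in limma), 0.55 in control (0.111) and 0.70 in mimic mice (0.0425). Slc12a2, the basolateral cotransporter NKCC1, went the opposite way, from 2.63 and 2.84 in normal to 1.93 and 1.89 in untreated, 1.77 and 1.98 in control and 2.15 and 1.74 in mimic mice. It was lower than normal by 0.82 in untreated (0.0563), 0.86 in control (0.0682) and 0.79 in mimic mice (0.0479). Mimic against untreated differed by 0.03 for Slc12a2 and 0.04 for Kcnj10. Each mimic call held under 7 of 18 alternatives, with adjusted p from 0.0227 to 0.219 for Kcnj10 and 0.0261 to 0.208 for Slc12a2. Leaving out any 1 normal, untreated or control mouse ended both (0.0908 to 0.142 for Kcnj10 and 0.0887 to 0.161 for Slc12a2).

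Against normal kidney, of 13 genes of aldosterone and ENaC control, 1 was called higher in untreated, 1 in control miRNA and 4 in mimic mice. None was called lower, and 3.93%, 1.72% and 8.51% of all genes were called. This list, like the others, was chosen with earlier results of these data known, so its counts beside these shares are only a description. Per1, a clock gene that also drives Scnn1a transcription, read 1.40 and 1.34 in normal, 3.14 and 3.13 in untreated, 2.67 and 2.60 in control and 3.26 and 3.05 in mimic mice. All 6 db/db mice lay far above both normal mice. It rose 3.40-fold in untreated (adjusted p = 0.0047 in limma), 2.40-fold in control (0.0151) and 3.44-fold in mimic kidney (0.0035). The untreated call was lost when either untreated mouse was left out (0.0629 and 0.0615), and the control call without any 1 normal, untreated or control mouse (0.0647 to 0.128). The mimic call of Per1 was lost under 1 of 18 alternative settings (highest adjusted p = 0.0720 in limma). Of the other genes, Hsd11b2, whose enzyme shields the mineralocorticoid receptor from glucocorticoids, came next in untreated (0.80, 0.0616) and in control mice (0.60, 0.134).

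The other 3 genes called higher in mimic than in normal mice respond to corticosteroids or act in the collecting duct. Sgk1, a kinase that keeps ENaC at the membrane, read 3.52 and 2.10 in normal, 5.24 and 4.43 in untreated, 4.16 and 4.35 in control and 5.14 and 5.55 in mimic mice. Its mimic mice stood 5.79-fold above normal (adjusted p = 0.0338 in limma). Untreated mice stood 4.08-fold above normal (0.0690), and mimic against untreated was 1.42-fold (0.640). The normal mice themselves lay well apart: the mimic against normal log2 difference of 2.53 was 3.24 without normal replicate 1 and 1.82 without normal replicate 2. Tsc22d3, the steroid-induced leucine zipper GILZ, read 2.26 and 1.99 in normal and 3.88 and 3.59 in mimic mice, with untreated at 3.14 and 2.61 and control at 2.58 and 2.55. Its mimic mice stood 3.05-fold above normal (0.0125) and 1.82-fold above untreated (0.203). Tfcp2l1, a transcription factor of collecting duct cells, read 3.65 and 3.31 in normal, 3.99 and 3.98 in untreated, 4.10 and 3.88 in control and 4.73 and 4.35 in mimic mice. Its mimic mice stood 2.09-fold above normal (0.0281). The calls held under 9, 14 and 8 of 18 alternatives for Sgk1, Tsc22d3 and Tfcp2l1, and those of Sgk1 and Tfcp2l1 were lost without mimic replicate 1 (0.0541 and 0.0527). Sgk1 also lost its call without normal replicate 2 (0.0882) or any 1 untreated or control mouse (0.0594 and 0.0686), Tfcp2l1 without any 1 normal, untreated or control mouse (0.0572 to 0.109), and Tsc22d3 without either normal mouse (0.0579 and 0.0723). In Per1, Sgk1, Tsc22d3 and Tfcp2l1, mimic replicate 1 was not the lowest of the 6 db/db mice.

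Between the db/db groups, 0 genes of any of the 4 lists were called, and 0% of all genes by their brightest probe. Among the smallest p of the lists in mimic against control miRNA were those of Tsc22d3 at 1.17 (adjusted p = 0.182 in limma) and Per1 at 0.52 (0.301), Oxsr1 at 0.57 (0.410) and Wnk2 at -0.46 (0.470), the sodium pump subunit Atp1b1 at 0.23 (0.590), and Slc9a8 at -0.50 (0.442) and Chp1 at 0.35 (0.528). In mimic against untreated they included Tsc22d3 at 0.86 (0.203) and Tfcp2l1 at 0.55 (0.288), Oxsr1 at 0.66 (0.214) and Wnk2 at -0.39 (0.362), and Slc9a8 at -0.44 (0.312) and Slc13a1 at 1.25 (0.379). In control miRNA against untreated all had an adjusted p of 1.00: Per1 (-0.50) and Usp2 (-0.48), Cul3 (-0.25) and Cab39 (-0.16), Slc12a7 (0.15) and Kcnj10 (-0.12), and Ezr (-0.14) and Slc9a3r1 (-0.13).

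**Figure D4:**
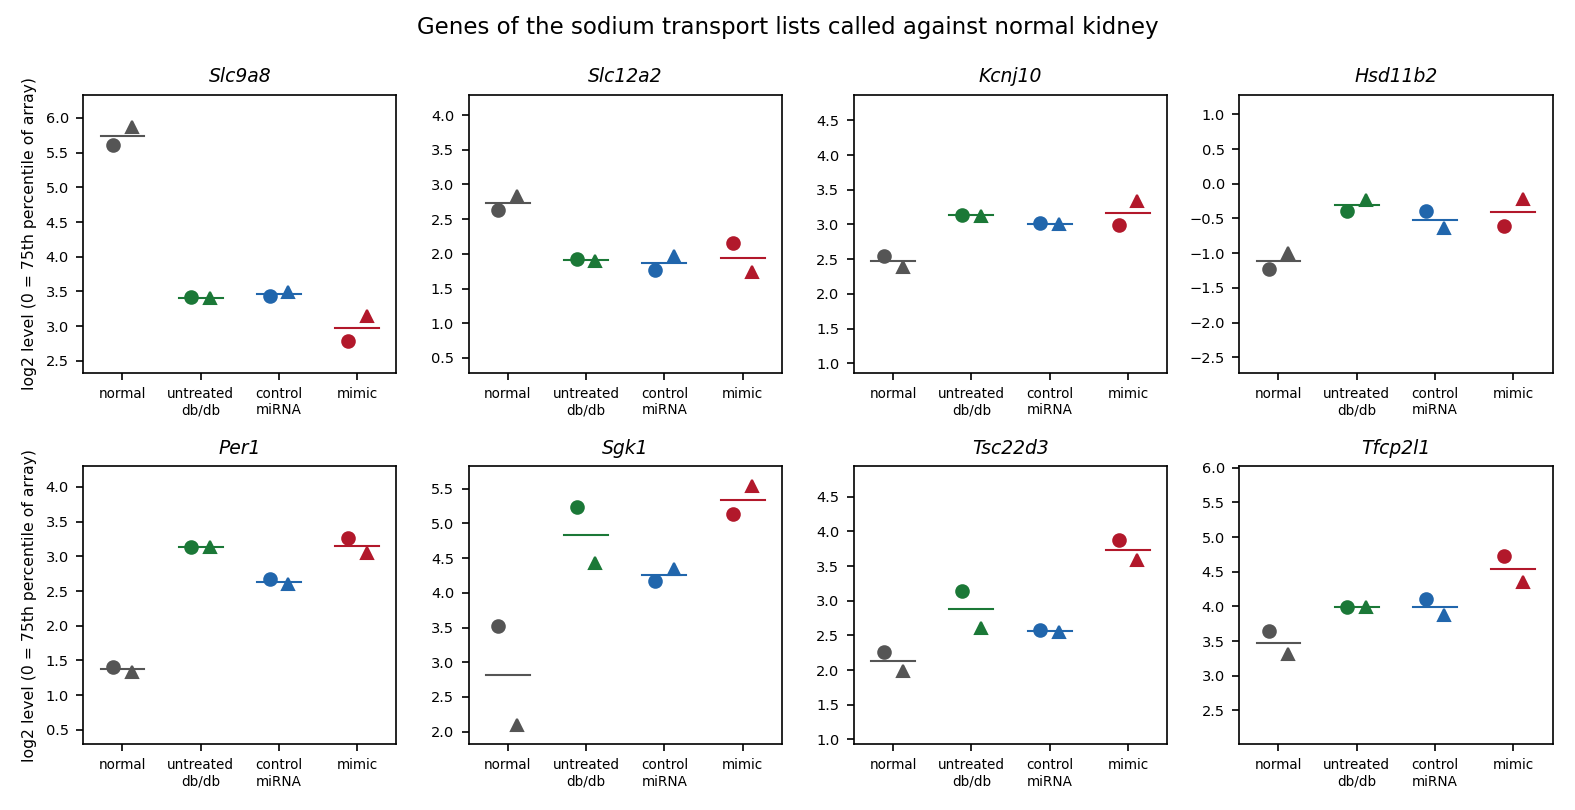
Level of 8 genes of the lists in every mouse, as log2 relative to the 75th percentile of the array (vertical axis, 4 units in every panel), by group (horizontal axis); circles are replicate 1, triangles replicate 2 and lines the mean of 2 mice. Slc9a8 and Slc12a2 of all 6 db/db mice lie below both normal mice and the other 6 genes above them; Hsd11b2 passed only when all 6 db/db mice were compared with normal.

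A comparison of all 6 db/db mice with the 2 normal mice was added after seeing the data, in the same fit. It called 1 of 17 member probes, the brightest Scnn1a probe (0.57, 95% interval 0.23 to 0.91, adjusted p = 0.0495 in limma), where 11.9% of all probes passed, and 4 of 17 were under 0.05 unadjusted, against 31.8%. The Scnn1a call was lost under 10 of 17 alternatives, with adjusted p from 0.0136 to 0.211. Leaving out either normal, either untreated or either control mouse ended it (0.0980 to 0.211), while leaving out mimic replicate 1 or 2 kept it (0.0246 and 0.0344). Without mimic replicate 1, 6 member probes passed, all higher: Scnn1a, Scnn1g (0.71), Slc12a3 (0.92), 2 Wnk1 probes (0.74 for the brightest and 0.45 for A_55_P2643836) and the dimmer Stk39 probe (0.44), where 21.5% of all probes passed. An exact two-sided permutation of 6 mice against 2 gave p = 0.0357 for Scnn1a and for Scnn1g, the smallest it can give, 0.0714 for Slc12a3 and 0.107 for Wnk1. That smallest p can arise only where the groups do not overlap, which held for 33.9% of all probes in either direction. The share of all probes that reach it was not computed. Among list genes by brightest probe, with 11.7% of all genes called, this comparison called Kcnj10, Hsd11b2, Sgk1, Tsc22d3, Tfcp2l1, Per1 and Slc9a3r2 higher and Slc12a2 and Slc9a8 lower.

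The genes whose levels followed a member most closely over the 8 arrays were sought among 19241 genes well above background on all of them, as a description. For Slc12a3 these were Zdhhc1 (Pearson r = 0.993), Gpd1 (0.990) and Hlf (0.990), and the first 2 stayed at the top without mimic replicate 1 (0.995 and 0.993). For Scnn1g they were Aak1 (0.992), Hoxd10 (0.984) and Rhobtb2 (0.976). Without mimic replicate 1 these were 0.992, 0.985 and 0.976, and Hspb8 and Tfcp2l1 came first (both 0.994), though over all 8 arrays they stood at 0.510 and 0.537. For Slc12a1 they were Tfdp2 (0.991), Kcns1 (0.986) and Abca4 (0.985). These last values rested on the low mimic mouse in part: without it they were 0.930, 0.853 and 0.782, and Ptger3, a prostaglandin receptor on the list of thick ascending limb markers, came first (0.983). All points share the same 8 libraries and groups.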

How the data were processed

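Per the labels, Cy3-labelled cRNA was made from total RNA of whole kidney with the Low Input Quick Amp kit and hybridised to Agilent arrays with 1 dye. Per the file headers, Agilent Feature Extraction 12.0.3.1 gave the deposited spot intensity after background subtraction and detrending. The deposited series table holds a ratio per probe. From its values, this is the intensity over the 75th percentile of the array, divided by the median over the 8 arrays. It is linear, and the log2 median lay within 0.001 of 0 for 100% of probes.

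Spots of a probe were averaged, divided by the array's 75th percentile and put on the log2 scale. A probe was kept when 1 group or more had it well above background on each of its arrays. limma 3.58.1 (R 4.3.3) fitted 1 mean per group to 8 arrays, with p-values adjusted by the Benjamini-Hochberg method over 33639 probes. The comparison of all 6 db/db mice with normal was added after seeing the data. A gene of a list is represented by its brightest probe. All member probes are named, and of each list the genes called, or the 2 of smallest p where fewer were; some of these are not reported here. Coordinates are those of the array annotation. The code was tested on simulated data. Members and lists were chosen with earlier results of these data known.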

Additional observations from a re-analysis of the deposited data

How the results depend on the processing

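Over 18 alternative settings (17 for all db/db mice against normal, the comparison added after seeing the data), 35 of 70 changes of brightest probes turned sign somewhere, 0 of them called there, the largest of 0.54 in size. The count of 17 member probes called against normal went from 0 to 1 in untreated mice under normexp background correction and when only the 4 arrays compared were fitted, and in mimic mice from 0 to 1 under normexp, under a filter on all 8 arrays and under eBayes with trend. For all db/db mice it went from 1 to 0 under quantile normalization, no filter, array weights and the replicate block. Leaving out 1 mouse gave 0 to 1 calls for untreated and for control miRNA against normal, 0 to 3 for mimic against normal, 0 to 6 for mimic against untreated, 0 to 4 for mimic against control miRNA and 0 to 6 for all db/db mice. Over all probes, the calls in untreated against normal went from 1408 to 3558 under normexp, 5053 without a mimic mouse and 45 to 111 without an untreated or normal mouse. For control miRNA they went from 556 to 1797, 3556 and 32 to 51, the last without a control or normal mouse. For mimic they went from 2739 to 3141 under normexp, to 545 under array weights and to 43 when only the 4 arrays compared were fitted. The cause was not tested.

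With the replicate number as a block, 0 member probes were called in all 7 comparisons, and all-probe calls were 791 in untreated, 256 in control miRNA and 2138 in mimic mice against normal. Same-numbered mice correlated at -0.03 to 0.16 in their deviations, so the numbers were not taken to pair mice.

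Sign changes were these, as log2 differences. Under quantile normalization, Klhl3 was 0.23, 0.19 and 0.14 in untreated, mimic and all db/db against normal, Scnn1b 0.29 in mimic against normal and 0.000712 in mimic against untreated, and Scnn1a 0.0036 in control against untreated. Under normexp, Scnn1b was -0.071, -0.045 and -0.054 in untreated, control and all db/db against normal and 0.025 in mimic against untreated, where Klhl3 was 0.023 and Wnk4 -0.012, and Slc9a3 was 0.038 in all db/db against normal. In the deposited series table, Scnn1b was 0.015 in mimic against normal.

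With 1 mouse left out, untreated against normal ranged from -0.17 to 0.24 for Scnn1b, -0.070 to 0.50 for Slc9a3, -0.16 to 0.076 for Klhl3 and -0.073 to 0.25 for Slc12a1. Control against normal ranged from -0.29 to 0.20 for Slc12a1, -0.23 to 0.34 for Slc9a3 and -0.024 to 0.33 for Stk39. Mimic against normal ranged from -0.17 to 0.12 for Scnn1b, -0.19 to 0.29 for Stk39, -0.52 to 0.17 for Klhl3, -0.12 to 1.20 for Slc12a3, -0.086 to 0.78 for Wnk1 and -0.32 to 0.53 for Wnk4. Control against untreated ranged from -0.085 to 0.32 for Scnn1b, -0.17 to 0.084 for Scnn1g, -0.14 to 0.023 for Wnk1, -0.11 to 0.052 for Scnn1a and -0.38 to 0.11 for Slc12a1. Mimic against untreated ranged from -0.37 to 0.34 for Scnn1g, -0.27 to 0.14 for Scnn1b, -0.48 to 0.21 for Klhl3, -0.96 to 0.37 for Slc12a3, -0.83 to 0.039 for Wnk1 and -0.41 to 0.44 for Wnk4. Mimic against control ranged from -0.28 to 0.42 for Klhl3, -0.33 to 0.38 for Scnn1g, -0.34 to 0.14 for Stk39, -0.83 to 0.49 for Slc12a3, -0.77 to 0.10 for Wnk1 and -0.51 to 0.34 for Wnk4. All db/db against normal ranged from -0.092 to 0.20 for Scnn1b, -0.34 to 0.23 for Slc9a3 and -0.011 to 0.27 for Wnk4. Signal over background limits Scnn1b, Klhl3 and the dimmer Slc9a3 and Slc12a1 probes most.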
